A study of Homo sapiens with 32 samples.

Results

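The genes described here are 10 that encode sensors of foreign or misplaced RNA and the proteins these sensors signal through or work with: RIGI, IFIH1, DHX58, TLR3, MAVS, TICAM1, EIF2AK2, ZC3HAV1, DHX33 and DDX3X. They were taken by gene name from the 3 count tables of the series (total, nuclear and cytoplasmic RNA), and all 10 were found among the 62703 gene identifiers of each table. The study used HEK293T, an established human embryonic kidney cell line, with CRISPR/Cas9 knockouts of IGF2BP1, IGF2BP2 or IGF2BP3. These 3 genes encode RNA-binding proteins that are active in the embryo and in many tumours, and the series title links them to innate immune signalling in leukemia stem cells. HEK293T is not a blood cell, and no leukemia cell was part of the samples.

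The groups were a CRISPR/Cas9 control made with a guide RNA that targets no mammalian gene, an IGF2BP1 gene knockout, an IGF2BP2 gene knockout and an IGF2BP3 gene knockout, all without further treatment and without any RNA or virus added. Per the labels, the cells were transfected transiently with non-integrating plasmids for 3 guide RNAs against a gene and for GFP, and cells positive for GFP were sorted singly. Each knockout is represented by 1 clone, and the labels do not say whether the control is a clone. All p-values therefore measure the spread between libraries of 1 clone, not between independently edited clones. For each RNA kind there were 4 control libraries (batches 1 to 4 in the labels), 2 of the IGF2BP1 knockout (batches 1 and 2), 2 of the IGF2BP2 knockout (batches 3 and 4) and 2 of the IGF2BP3 knockout (batches 3 and 4). Batch 5 consisted of 2 more cytoplasmic IGF2BP3 knockout libraries and had no control. The labels do not say what a batch stands for.

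RIGI (the RIG-I protein) and IFIH1 (MDA5) are helicases that recognise double-stranded RNA in the cytosol, and DHX58 (LGP2) is their relative that lacks the signalling domain. Once bound to RNA, RIG-I and MDA5 assemble on MAVS, an adaptor in the outer mitochondrial membrane, which activates the kinases upstream of IRF3, IRF7 and NF-kappaB and so the interferon genes. TLR3 senses double-stranded RNA in endosomes, outside the cytosol, and signals through the adaptor TICAM1 (TRIF). EIF2AK2 (PKR) is a kinase that double-stranded RNA activates to halt translation, ZC3HAV1 (ZAP) binds CpG-rich RNA and recruits decay factors, and the helicases DHX33 and DDX3X have been linked to RNA sensing beside their work in ribosome production and translation. IFIH1, RIGI, DHX58, TLR3, EIF2AK2 and ZC3HAV1 are also known to be induced by interferon.

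Because several of these genes are interferon-induced, the promoters of the measured members were searched on both strands for the core of the interferon-stimulated response element, GAAA and a second GAAA with any 2 bases between them. RefSeq promoter windows of 300 bases (250 before and 50 after the start of the gene, GRCh38.p14) were at hand for 8 of the 10 genes, not for DHX58 and DHX33. The motif occurred in windows of 3 of these 8 genes and in 1255 of 35116 windows of all genes (3.57%). The former counts genes and the latter windows, and a gene can have several windows, as DDX3X does. The sequences around the start of these 3 genes are shown because the genes differ in how they moved in the knockouts. Each runs 5′ to 3′ on the strand of the gene, from 170 bases before the start to 10 after it, and capitals mark the motif or its reverse complement.
IFIH1, chr2:162318675-162318854, minus strand: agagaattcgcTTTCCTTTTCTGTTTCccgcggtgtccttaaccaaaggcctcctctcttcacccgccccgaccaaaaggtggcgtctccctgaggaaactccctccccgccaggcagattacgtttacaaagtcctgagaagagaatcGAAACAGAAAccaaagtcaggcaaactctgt
TLR3, chr4:186068986-186069165, plus strand: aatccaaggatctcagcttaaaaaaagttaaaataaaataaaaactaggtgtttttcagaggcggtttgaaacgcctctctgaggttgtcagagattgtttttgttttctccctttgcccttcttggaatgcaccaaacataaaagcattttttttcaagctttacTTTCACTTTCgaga
EIF2AK2, chr2:37156971-37157150, minus strand: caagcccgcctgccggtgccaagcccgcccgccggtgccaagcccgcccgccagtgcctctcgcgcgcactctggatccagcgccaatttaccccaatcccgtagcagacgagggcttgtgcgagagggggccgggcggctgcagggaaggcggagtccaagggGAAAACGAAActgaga
The window of IFIH1 held 3 matches, beginning at positions -159, -153 and -21 relative to the start, of which the first pair overlap. That of TLR3 held 1 match at -4 and that of EIF2AK2 held 1 at -6. A match is a run of letters and says nothing about binding in these cells.

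Libraries held 13689067 to 26119480 counts. Each targeted gene was called lower in its knockout in every RNA kind, with IGF2BP1 at 5.16% to 6.34% of the control, IGF2BP2 at log2 fold changes of -1.31 to -1.39 and IGF2BP3 at -0.95 to -1.21. Total IGF2BP1 knockout replicate 2 and nuclear IGF2BP1 knockout replicate 1 held the same 21232940 counts gene by gene, with 0 of 62703 identifiers differing, so the deposited tables hold 31 distinct libraries. Some results of the IGF2BP1 knockout in total and nuclear RNA are also given without it, where this is stated. All others, such as the medians of neighbouring genes, include the shared library. Without it 1 library of that knockout remains, and its p-value rests on the spread of the other groups, which the fit assumes to hold for it. The 5 kidney epithelial markers (PAX2, PAX8, LHX1, KRT8 and KRT18) summed to 63.9 to 154.8 scaled CPM, with PAX8 alone among them at 3 counts or fewer in every library. The summed level of the blood cell markers was 2.68 to 9.21 scaled CPM, with PTPRC and CD3E at 3 counts or fewer. In the control, the nuclear RNAs MALAT1 and KCNQ1OT1 were higher in nuclear than in cytoplasmic RNA, by log2 2.15 and 2.39. GAPDH and ACTB mRNA were lower there, by -0.69 and -0.59. A lower level in these bulk samples cannot be told apart from fewer cells that express the gene.

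Levels are given as scaled CPM, counts-per-million values relative to a library size scaled by TMM, a factor that centres the bulk of genes between libraries. Knockouts were compared with the control by edgeR's quasi-likelihood test with batch as a term, and a gene is called where the p-value, Benjamini-Hochberg adjusted over all genes tested, is under 0.05. The scaling matters for small changes. With unscaled library totals, an alternative chosen after seeing the data, the median log2 fold change of all genes moved up by 0.222 in the IGF2BP2 and 0.267 in the IGF2BP3 knockout in cytoplasmic RNA, by 0.184 and 0.216 in total RNA and by 0.0973 and 0.125 in nuclear RNA, so the changes below are relative to the bulk of genes. Among genes called in total RNA, the share that was higher went from 44.1% to 56.2%, from 49.6% to 69% and from 50.1% to 73.3% in the IGF2BP1, IGF2BP2 and IGF2BP3 knockouts. In nuclear RNA it went from 49.9% to 60.6% and from 49.8% to 63.6% in the IGF2BP2 and IGF2BP3 knockouts. In cytoplasmic RNA it went from 50.7% to 63.2%, from 48.2% to 68% and from 48.6% to 72.9% in the 3 knockouts. Upper-quartile scaling moved the median by 0.101 and 0.131 in total RNA and by 0.148 and 0.168 in cytoplasmic RNA of the IGF2BP2 and IGF2BP3 knockouts. The share that was higher was then 55.3%, 60.5% and 64.5% in total RNA of the 3 knockouts and 61.6% and 64.6% in cytoplasmic RNA of the IGF2BP2 and IGF2BP3 knockouts.

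In control cells the 10 mRNAs spanned a wide range. Levels between genes are compared as scaled CPM per kilobase of exon sequence (union of exons in GENCODE 29), because the deposited FPKM values divide by the whole span of the gene, introns included. In total RNA the order was DDX3X (56.9 ± 6.81, SD, n = 4), DHX33 (32.7 ± 2.39), MAVS (15 ± 0.605), EIF2AK2 (10.4 ± 1.1), ZC3HAV1 (9.84 ± 0.978), TICAM1 (1.53 ± 0.175), IFIH1 (0.253 ± 0.048), DHX58 (0.147 ± 0.0333), RIGI (0.11 ± 0.0827) and TLR3 (0.054 ± 0.0234). The highest level was 1055 times the lowest. Neighbours whose control libraries overlapped were EIF2AK2 with ZC3HAV1, DHX58 with RIGI, and RIGI with TLR3. The adaptor MAVS, the kinase EIF2AK2 and the helicases DDX3X and DHX33 were thus plentiful, while the 4 receptors IFIH1, DHX58, RIGI and TLR3 rested on 0 to 104 counts per library. Their fold changes carry correspondingly wide errors. The same 4 genes had the lowest levels in nuclear and in cytoplasmic RNA, and DDX3X had the highest.

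**Figure D1:**
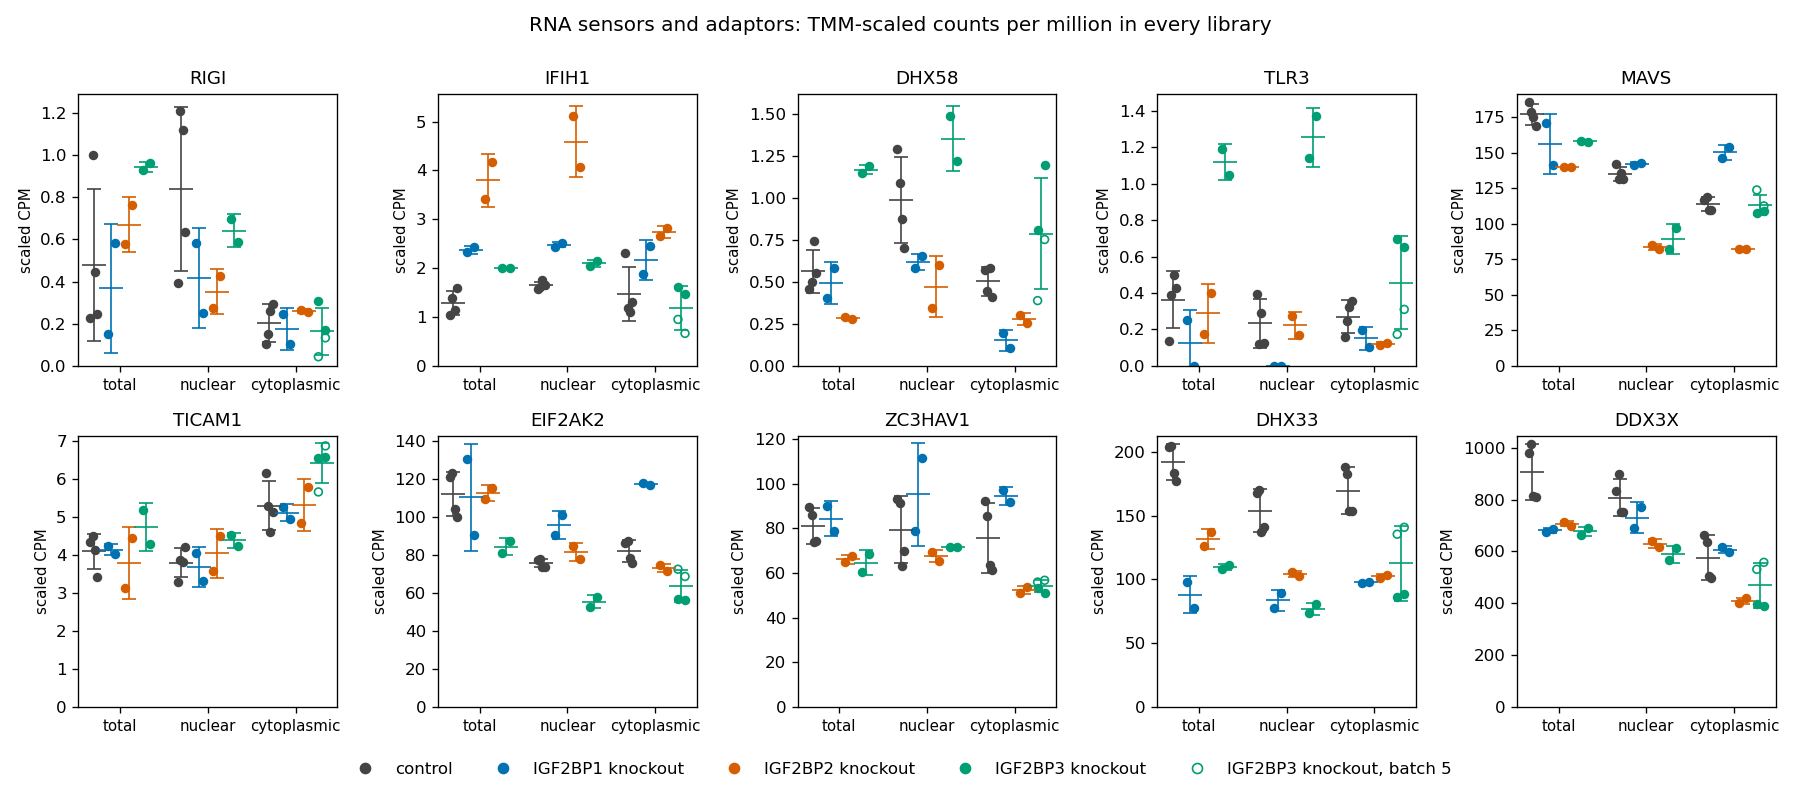
Scaled CPM (y axis from 0) of each gene in every library of total, nuclear and cytoplasmic RNA. Points are libraries, horizontal lines the mean and bars the SD of a group, and open green points are the batch 5 libraries of the IGF2BP3 knockout. The IFIH1 points of the IGF2BP2 knockout lie above, and the DHX33 points of all knockouts below, every control point in each RNA kind.

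Between 3 and 6 of the 10 genes were called in each knockout and RNA kind, and these shares are set beside the share called among all genes. The IGF2BP1 knockout had 3 of 10 called in total RNA (1 higher, 2 lower), where 24.2% of all 18745 genes tested were called. In the IGF2BP2 knockout 4 of 10 were called (1 higher, 3 lower) against 47% of all genes, and in the IGF2BP3 knockout 3 of 10 (1 higher, 2 lower) against 46.9%. In nuclear RNA the counts were 3 of 10 (1 higher, 2 lower) against 25.7% in the IGF2BP1 knockout, 3 of 10 (1 higher, 2 lower) against 49.7% in the IGF2BP2 knockout and 5 of 10 (1 higher, 4 lower) against 50.4% in the IGF2BP3 knockout. In cytoplasmic RNA, where RIGI did not pass the filter on low counts, they were 5 of 9 (2 higher, 3 lower) against 44.4%, 5 of 9 (1 higher, 4 lower) against 64.2% and 6 of 9 (2 higher, 4 lower) against 64.7%. The shares are near those of all genes, so the number of calls sets these genes apart in no knockout. Their median log2 fold changes in the IGF2BP1, IGF2BP2 and IGF2BP3 knockouts were -0.20, -0.18 and 0.10 (total RNA), -0.11, -0.14 and -0.12 (nuclear RNA) and -0.10, -0.29 and -0.02 (cytoplasmic RNA), where the medians of all genes lay between 0.00 and 0.02. The 3 knockouts share control libraries, so their values are given side by side and not as independent observations.

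**Figure D2:**
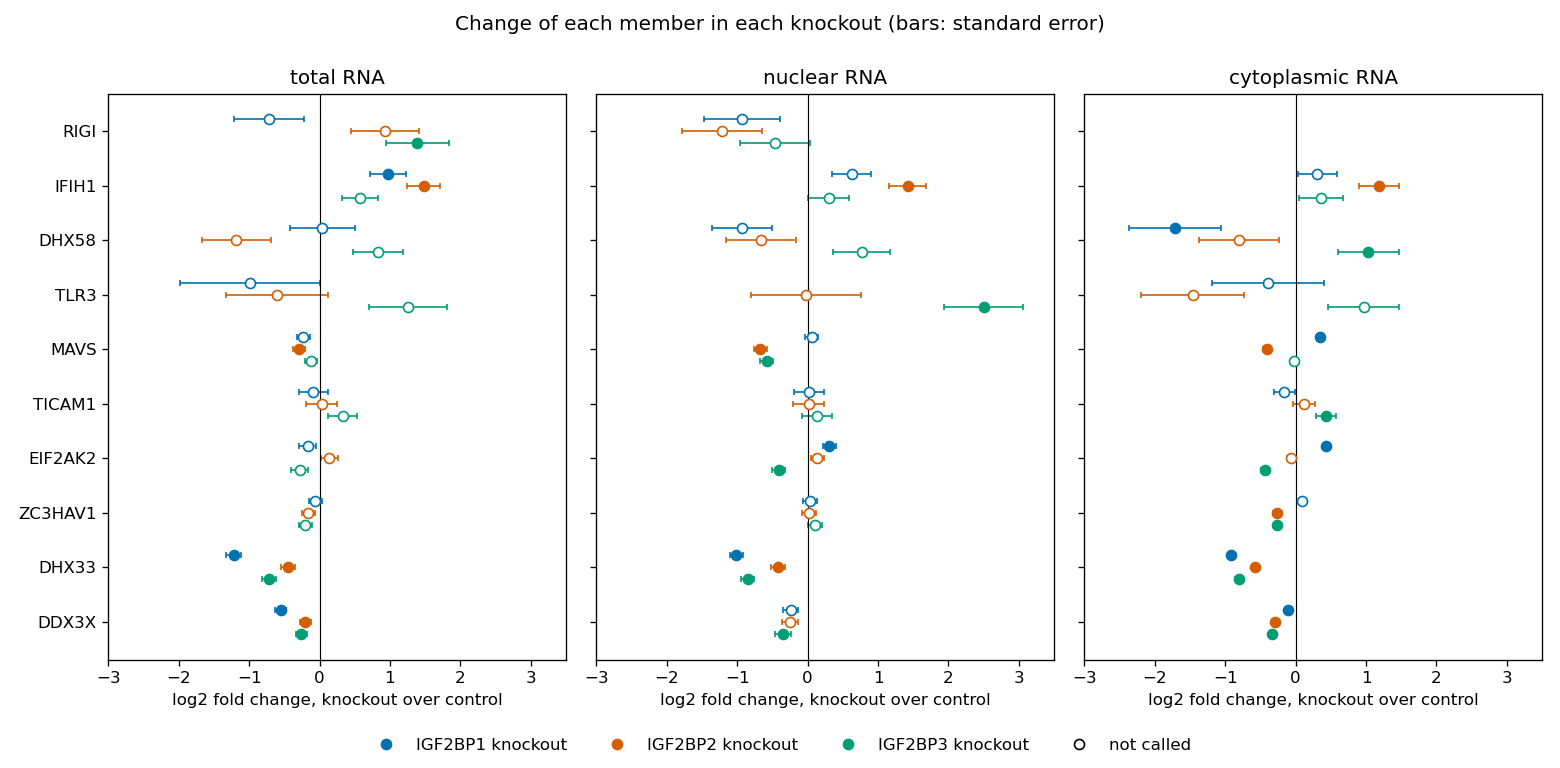
Log2 fold change of each gene against control (x axis) with its standard error (bars), by knockout and RNA kind. Filled points were called by edgeR at an adjusted p under 0.05. TLR3 in nuclear RNA of the IGF2BP1 knockout (0 counts) is not drawn and RIGI was not tested in cytoplasmic RNA. DHX33 is left of 0 in all 9 comparisons and IFIH1 of the IGF2BP2 knockout right of 1 in all 3 RNA kinds.

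IFIH1, the sensor of long double-stranded RNA (ENSG00000115267, chr2:162267079-162318703, minus strand, GRCh38), was higher in the IGF2BP2 knockout in all 3 RNA kinds. In total RNA the 4 control libraries had 1.05, 1.39, 1.14 and 1.59 scaled CPM (23 to 26 counts), and the 2 libraries of the IGF2BP2 knockout had 3.41 and 4.18 (59 and 104 counts). Nuclear RNA gave 1.57, 1.62, 1.75 and 1.65 in the control and 5.11 and 4.07 in the knockout, and cytoplasmic RNA gave 2.3, 1.19, 1.1 and 1.3 against 2.66 and 2.83. Every knockout library lay above every control library. The log2 fold changes were 1.48 (SE 0.237, edgeR adjusted p = 0.000233) in total, 1.42 (SE 0.263, adjusted p = 1.48e-05) in nuclear and 1.19 (SE 0.285, adjusted p = 0.000498) in cytoplasmic RNA, and they stayed called under every alternative run. The IGF2BP1 knockout had 2.32 and 2.43 scaled CPM in total RNA, with a log2 fold change of 0.97 (SE 0.257, adjusted p = 0.0155). That call was lost with DESeq2 (adjusted p = 0.0832), without control replicate 1 (0.0804) and without IGF2BP1 knockout replicate 1 (0.0827). Without the shared library, with 1 IGF2BP1 library left, the value was 1.15 (adjusted p = 0.0265). In nuclear and cytoplasmic RNA of that knockout the values were 0.63 (adjusted p = 0.087) and 0.31 (adjusted p = 0.378). The IGF2BP3 knockout had 2.0 and 2.01 scaled CPM in total RNA, also above all controls, with a log2 value of 0.57 that was not called (adjusted p = 0.0821; with library totals 0.79, adjusted p = 0.0212).

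RIGI, the sensor of short RNA ends with triphosphates (ENSG00000107201, chr9:32455705-32526324, minus strand), was close to the limit of what these libraries can show. Total RNA of the control gave 5, 18, 9 and 4 counts, the IGF2BP1 knockout 3 and 12, the IGF2BP2 knockout 10 and 19, and the IGF2BP3 knockout 25 and 21. The knockout groups overlap the control in scaled CPM in every RNA kind. Control replicate 2 of total RNA (0.999) lies above both IGF2BP3 libraries (0.928 and 0.961). With batch as a term RIGI was called higher in the IGF2BP3 knockout in total RNA, with a log2 fold change of 1.39 (SE 0.444, edgeR adjusted p = 0.0202). The call was lost with DESeq2 (0.146), without the batch term (0.113), without control replicate 4 (0.209) and without either IGF2BP3 library (0.123 and 0.124). In nuclear RNA the control held 7, 30, 23 and 10 counts and the 6 knockout libraries 4 to 14, with log2 values of -0.93, -1.22 and -0.46 for the 3 knockouts, none of them called. Without the shared library the IGF2BP1 knockout was left with 1 nuclear library of 5 counts, and the value was -2.24 (adjusted p = 0.0148). Cytoplasmic libraries held 1 to 8 counts each.

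DHX58, which modulates signalling by its relatives (ENSG00000108771, chr17:42101404-42112733, minus strand), was higher in the IGF2BP3 than in the IGF2BP2 knockout in all 3 RNA kinds. In total RNA the control had 0.456, 0.499, 0.746 and 0.551 scaled CPM (9 to 15 counts), the IGF2BP2 knockout 0.289 and 0.281 (5 and 7 counts) and the IGF2BP3 knockout 1.15 and 1.19 (31 and 26 counts). Neither difference from the control was called in total RNA, at log2 -1.18 (adjusted p = 0.0625) and 0.83 (adjusted p = 0.0764). Each was called under 5 of 19 alternatives, that of the IGF2BP3 knockout with upper-quartile scaling (0.0443), library totals (0.0285) and no batch term (0.00886) among them. In cytoplasmic RNA the control had 0.574, 0.446, 0.584 and 0.413, the IGF2BP1 knockout 0.197 and 0.106 (4 and 2 counts), and the IGF2BP3 knockout 0.81 and 1.2 in batches 3 and 4 and 0.389 and 0.753 in batch 5. It was called lower there in the IGF2BP1 knockout (log2 -1.71, SE 0.656, edgeR adjusted p = 0.0332) and higher in the IGF2BP3 knockout (log2 1.03, SE 0.433, adjusted p = 0.0381). With DESeq2 the adjusted p-values were 0.13 and 0.253, and without the batch term 0.054 and 0.116. The difference between the IGF2BP3 and IGF2BP2 knockouts, which share batches 3 and 4, was larger: log2 2.0 (adjusted p = 0.00179) in total, 1.43 (adjusted p = 0.00627) in nuclear and 1.82 (adjusted p = 0.000485) in cytoplasmic RNA.

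TLR3, the endosomal receptor (ENSG00000164342, chr4:186069152-186088069, plus strand), was the other receptor that was highest in the IGF2BP3 knockout. In nuclear RNA the control held 7, 3, 6 and 2 counts (0.392, 0.121, 0.291 and 0.127 scaled CPM), the IGF2BP2 knockout 4 and 4, and the IGF2BP3 knockout 23 and 28 (1.14 and 1.37). Both IGF2BP3 libraries lie above every other nuclear library. The log2 fold change was 2.5 (SE 0.567, edgeR adjusted p = 0.000267), called under all alternatives run. Total RNA showed 32 and 23 counts against 3 to 10 in the control, with a log2 value of 1.26 that was not called (adjusted p = 0.077; with library totals 1.47, adjusted p = 0.0402). Cytoplasmic RNA gave 0.694 and 0.653 scaled CPM in batches 3 and 4 against 0.156 to 0.354 in the control (log2 0.97, adjusted p = 0.091; with library totals 1.24, adjusted p = 0.0291). Nuclear RNA of the IGF2BP1 knockout held 0 counts in both libraries and was called lower (adjusted p = 0.00888). Set against 3 counts over both libraries, the level was at least 3.12-fold lower than in the control. Without the shared library the bound was 1.57-fold and the call was lost (adjusted p = 0.221), as it was without control replicate 1 (0.209).

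TICAM1, the adaptor of TLR3 (ENSG00000127666, chr19:4815932-4831704, minus strand), varied little. Its group means lay between 3.79 and 4.75 scaled CPM in total RNA, between 3.68 and 4.39 in nuclear RNA and between 5.11 and 6.41 in cytoplasmic RNA. The call was made in cytoplasmic RNA of the IGF2BP3 knockout, where the control had 6.16, 5.3, 4.61 and 5.13 and the knockout 6.56, 6.57, 5.66 and 6.87 scaled CPM. The groups overlap, and the log2 fold change was 0.43 (SE 0.146, edgeR adjusted p = 0.0109). It was lost with DESeq2 (adjusted p = 0.105), without the batch term (0.0795), without control replicate 3 (0.0562) or 4 (0.0596) and without IGF2BP3 knockout replicate 1 (0.123).

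MAVS, the mitochondrial adaptor (ENSG00000088888, chr20:3846799-3876123, plus strand), moved in opposite directions in different knockouts and fractions. In nuclear RNA the control had 142, 132, 135 and 131 scaled CPM, the IGF2BP2 knockout 85.1 and 82.3 and the IGF2BP3 knockout 82.0 and 97.0. Both knockouts lay below every control library, with log2 fold changes of -0.67 (SE 0.0971, edgeR adjusted p = 1.34e-07) and -0.58 (SE 0.0965, adjusted p = 2.19e-06). Both calls held under every alternative. In cytoplasmic RNA the control had 116, 119, 109 and 109.8, the IGF2BP1 knockout 147 and 154 and the IGF2BP2 knockout 82.5 and 82.4, so these 2 knockouts lay on either side of the control. The log2 fold changes were 0.35 (SE 0.045, adjusted p = 6.94e-08) and -0.41 (SE 0.0479, adjusted p = 3.75e-09), and both held under every alternative, although library totals brought the latter to -0.19. The IGF2BP3 knockout had 108, 109, 124 and 112 in cytoplasmic RNA, of which those of batches 3 and 4 lay just under the control range and that of 124 above it, with a log2 value of -0.02 (adjusted p = 0.74). This value turned to 0.15 with upper-quartile scaling (adjusted p = 0.00538) and to 0.25 with library totals (adjusted p = 1.76e-05), so no direction can be given. In total RNA the control had 186, 178, 175 and 169 and the IGF2BP2 knockout 140.1 and 140.0, a log2 fold change of -0.29 (SE 0.0892, adjusted p = 0.0158). That call was lost with upper-quartile scaling (0.0902), with library totals (log2 -0.11, adjusted p = 0.337), without control replicate 3 (0.128) or 4 (0.0929) and without either IGF2BP2 library (0.18 and 0.146). The values for the IGF2BP1 and IGF2BP3 knockouts in total RNA were -0.23 (adjusted p = 0.0793) and -0.12 (adjusted p = 0.278).

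EIF2AK2, the kinase PKR (ENSG00000055332, chr2:37099210-37157065, minus strand), was higher in the IGF2BP1 and lower in the IGF2BP3 knockout in the cytoplasm. Cytoplasmic control libraries had 86.5, 87.3, 78.3 and 75.6 scaled CPM, the IGF2BP1 knockout 118 and 117, the IGF2BP2 knockout 74.8 and 71.6, and the IGF2BP3 knockout 56.8 and 56.4 in batches 3 and 4 and 72.5 and 68.7 in batch 5. The log2 fold changes of the IGF2BP1 and IGF2BP3 knockouts were 0.43 (SE 0.0458, edgeR adjusted p = 1.39e-09) and -0.44 (SE 0.0498, adjusted p = 1.72e-09). Both held under every alternative, the latter at -0.17 with library totals. Nuclear RNA went the same way, from 77.1, 77.9, 73.8 and 73.9 in the control to 90.5 and 101 in the IGF2BP1 knockout (log2 0.31, SE 0.0926, adjusted p = 0.0111) and to 52.9 and 57.9 in the IGF2BP3 knockout (log2 -0.41, SE 0.0951, adjusted p = 0.000295). The nuclear IGF2BP1 call was lost without control replicate 2 (adjusted p = 0.162) or IGF2BP1 knockout replicate 2 (0.166) and was kept without the shared library, on 1 library (log2 0.38, adjusted p = 0.0113). The nuclear IGF2BP3 call was lost without IGF2BP3 knockout replicate 1 (0.0564). In total RNA no knockout was called, and the shared library, at 90.3 scaled CPM, stood far from the other IGF2BP1 library at 130.2. The value of the IGF2BP3 knockout there, -0.28 (adjusted p = 0.0718), was called under 7 of 20 alternatives, without the shared library (0.00029) and without the batch term (0.019) among them. In the IGF2BP2 knockout the log2 values were 0.14, 0.14 and -0.07 in total, nuclear and cytoplasmic RNA, none called. With library totals they were 0.32, 0.24 and 0.15, all called (adjusted p = 0.0414, 0.0284 and 0.00711). The gene GPATCH11 overlaps EIF2AK2 on the opposite strand, with at most 1233 counts, and whether reads were counted by strand is not stated in the sources used here.

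ZC3HAV1, the CpG-binding antiviral protein ZAP (ENSG00000105939, chr7:139043520-139109719, minus strand), was called in cytoplasmic RNA. The IGF2BP2 and IGF2BP3 knockouts stood in total RNA at log2 -0.16 (edgeR adjusted p = 0.174) and -0.20 (adjusted p = 0.101), and each was called under 6 of 20 alternatives, such as without the shared library (0.0201 and 0.00777) and without the batch term (0.0325 and 0.0188). In cytoplasmic RNA the control had 92.5, 85.4, 63.6 and 61.5 scaled CPM, the IGF2BP2 knockout 51.0 and 53.6 and the IGF2BP3 knockout 53.3, 51.0, 56.0 and 56.8. Control batches 1 and 2 lay above batches 3 and 4, so the difference from the same-batch controls is smaller than that of the group means. The log2 fold change was -0.26 in both knockouts (adjusted p = 7.58e-05 and 5.7e-05). With upper-quartile scaling the values were -0.11 and -0.09, neither called (adjusted p = 0.0699 and 0.122), and with library totals -0.04 and 0.01 (adjusted p = 0.572 and 0.928), so the calls rest on how the libraries are scaled. The genes within 5 Mb of ZC3HAV1 behaved otherwise in the IGF2BP2 knockout. Of 63 neighbours tested in cytoplasmic RNA 46 were higher, with a median log2 fold change of 0.88. Among all 18212 genes tested there, 5635 were higher.

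DDX3X, a helicase of translation initiation (ENSG00000215301, chrX:41333284-41364472, plus strand), was lower in total RNA of the IGF2BP1 knockout. The control had 980, 1015, 813 and 811 scaled CPM and the IGF2BP1 knockout 675 and 687, a log2 fold change of -0.55 (SE 0.0768, edgeR adjusted p = 0.000272). The call stood under every alternative. Without the shared library, with 1 IGF2BP1 library left, the value was -0.53. In nuclear RNA of that knockout the value was -0.24 (adjusted p = 0.0969), and in cytoplasmic RNA -0.10 (adjusted p = 0.027), which turned to 0.08 without the batch term. Cytoplasmic libraries of the IGF2BP2 knockout had 402 and 419, and those of the IGF2BP3 knockout in batches 3 and 4 had 398 and 391, against 505 and 496 in the controls of those batches. The log2 fold changes were -0.29 (adjusted p = 2.4e-08) and -0.34 (adjusted p = 4.78e-10), and with library totals they were -0.06 (adjusted p = 0.13) and -0.08 (adjusted p = 0.0669). In the IGF2BP3 knockout nuclear RNA gave -0.35 (adjusted p = 0.00693), lost without control replicate 3 (0.162) or 4 (0.11) or IGF2BP3 knockout replicate 1 (0.152), and total RNA gave -0.26 (adjusted p = 0.0129) and -0.05 with library totals (adjusted p = 0.643). In total RNA of the IGF2BP2 knockout the value was -0.20 (adjusted p = 0.0468), a call that 12 of 20 alternatives lost.

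DHX33, a nucleolar helicase (ENSG00000005100, chr17:5440912-5469060, minus strand), was lower in every knockout and RNA kind. In total RNA the control had 204, 204, 183 and 177 scaled CPM, the IGF2BP1 knockout 98.1 and 77.8, the IGF2BP2 knockout 126 and 137, and the IGF2BP3 knockout 108 and 111. In cytoplasmic RNA the control had 188, 183, 154 and 154, the IGF2BP1 knockout 97.4 and 98.2, the IGF2BP2 knockout 101 and 104, and the IGF2BP3 knockout 86.1 and 88.9 in batches 3 and 4 and 135 and 141 in batch 5. Every knockout library lay below every control library in all 3 RNA kinds. The log2 fold changes in the IGF2BP1 knockout were -1.22 (SE 0.101, edgeR adjusted p = 5.63e-06) in total, -1.01 (SE 0.0943, adjusted p = 7.48e-12) in nuclear and -0.92 (SE 0.0426, adjusted p = 1.4e-18) in cytoplasmic RNA. Without the shared library, with 1 IGF2BP1 library left in each kind, the total and nuclear values were -1.05 and -0.92. The IGF2BP2 knockout gave -0.45, -0.42 and -0.58 (adjusted p = 0.0023, 0.000233 and 5.66e-14), and the IGF2BP3 knockout gave -0.72, -0.85 and -0.81 (adjusted p = 7.61e-05, 2.62e-10 and 1.18e-17). Of these 9 calls, 8 held under every alternative, library totals included. That of the IGF2BP2 knockout in total RNA was lost without control replicate 3 (0.0589) and without IGF2BP2 knockout replicate 1 (0.0863). The gene C1QBP overlaps DHX33 on the same strand and held up to 23225 counts in a library, where DHX33 never fell under 1482, so reads in the shared stretch may be split between them.

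Most genes around DHX33 were also lower in the IGF2BP1 knockout. Within 5 Mb of its start on chromosome 17, 136 of 200 genes tested were lower in total RNA of the IGF2BP1 knockout and 1 was higher, with a median log2 fold change of -0.80. In nuclear RNA 156 of 197 were lower, with a median of -0.83, and in cytoplasmic RNA 151 of 195, with a median of -0.90. Over all genes 13.5%, 13.0% and 21.9% were lower in these comparisons. DHX33 itself, at -1.22, -1.01 and -0.92, thus lay below its neighbours' median by less than it lay below the control. In the IGF2BP2 knockout the medians of the neighbours were -0.03, -0.03 and 0.03, and in the IGF2BP3 knockout 0.27, 0.26 and 0.31. In cytoplasmic RNA of the IGF2BP3 knockout 104 of 195 neighbours were higher, beside 5730 of all 18212 genes. In those knockouts DHX33 was lower while the middle of its neighbourhood was not. The part of the neighbourhood in the DHX33 result was not tested.

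**Figure D3:**
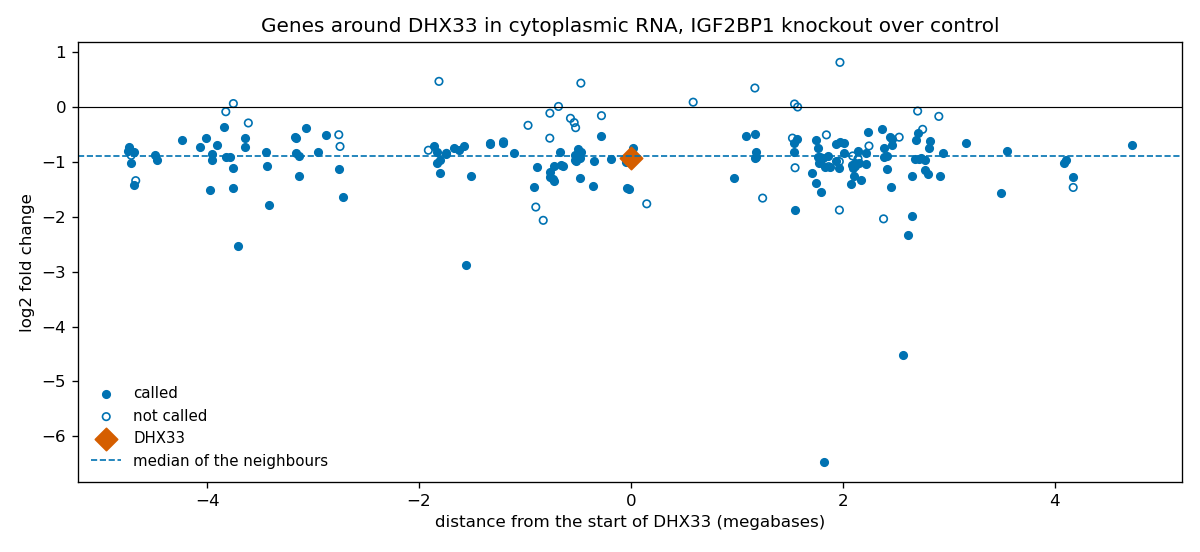
Log2 fold change in cytoplasmic RNA of the IGF2BP1 knockout against control (y axis) for genes within 5 Mb of the start of DHX33, by distance from that start (x axis, Mb). The dashed line is the median of the neighbours, -0.90, close to the value of DHX33 (-0.92).

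DHX58, IFIH1 and EIF2AK2 also lie among genes that moved in some knockouts. The neighbours of DHX58 had medians of -0.45, -0.42 and -0.39 in the IGF2BP1 knockout and of 0.30, 0.27 and 0.37 in the IGF2BP3 knockout, in total, nuclear and cytoplasmic RNA, and these have the same signs as the DHX58 calls in the cytoplasm. In the IGF2BP2 knockout the medians were -0.25, -0.31 and -0.12, where DHX58 stood at -1.18, -0.66 and -0.80. The neighbours of IFIH1 in the IGF2BP2 knockout had medians of 0.24, 0.16 and 0.14, far below the 1.19 to 1.48 of IFIH1. In the IGF2BP3 knockout their medians were -0.45, -0.57 and -0.39, where IFIH1 stood at 0.57, 0.30 and 0.36. There 20 of 31 neighbours were lower in cytoplasmic RNA, beside 33.2% of all genes. For EIF2AK2 in the IGF2BP3 knockout the medians were -0.21, -0.29 and -0.28, and 25 of 42 neighbours were lower in cytoplasmic RNA, beside 33.2% of all genes. In the IGF2BP2 knockout the medians around EIF2AK2 were -0.03, -0.02 and -0.14. The neighbours of MAVS had medians of -0.01 to 0.14 over the 9 comparisons, and those of TLR3 in the IGF2BP3 knockout 0.13, 0.07 and -0.05. The part of these neighbourhoods in the members' values was not tested.

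The IGF2BP2 and IGF2BP3 knockouts share batches and can be compared directly. Called in that contrast were 5 of 10 genes in total RNA (2 higher in the IGF2BP3 knockout, 3 lower) against 43.3% of all genes, 5 of 10 in nuclear RNA (2 higher, 3 lower) against 48.2% and 7 of 9 in cytoplasmic RNA (4 higher, 3 lower) against 62.7%. DHX58 and TLR3 were higher in the IGF2BP3 knockout in all 3 RNA kinds, TLR3 by log2 1.86 (edgeR adjusted p = 0.0201), 2.52 (adjusted p = 0.000245) and 2.43 (adjusted p = 0.00035). IFIH1 was lower, by -0.91 (adjusted p = 0.00342), -1.11 (adjusted p = 0.000219) and -0.83 (adjusted p = 0.0028). The medians of the neighbours of IFIH1 against control, given above, were also lower in the IGF2BP3 than in the IGF2BP2 knockout. Those around DHX58 were higher and those around EIF2AK2 lower there, as were DHX58 and EIF2AK2 themselves. Around DHX33, which was lower in this contrast, the medians were higher, and around TLR3 they had no common direction. The part of these neighbourhoods was not tested. DESeq2 lost the calls of IFIH1 in total (0.0634) and cytoplasmic RNA (0.0911), of TLR3 in total RNA (0.105) and of DHX58 in nuclear RNA (0.073). Leaving out 1 library of these knockouts lost IFIH1 in total RNA (IGF2BP2 replicate 2, 0.0864; IGF2BP3 replicate 2, 0.111) and cytoplasmic RNA (IGF2BP3 replicate 2, 0.0792). It lost TLR3 in total RNA whichever of the 4 libraries was left out (0.0716 to 0.239), and in nuclear RNA without IGF2BP3 replicate 2 (0.085). It lost DHX58 in nuclear RNA without IGF2BP2 replicate 1 (0.184) or IGF2BP3 replicate 1 (0.102), and in cytoplasmic RNA without IGF2BP3 replicate 2 (0.0569). DHX58 in total, IFIH1 in nuclear and TLR3 in cytoplasmic RNA kept their calls under all alternatives. Of the genes whose promoter windows held the response element core, TLR3 was higher and IFIH1 and EIF2AK2 were lower in this contrast. EIF2AK2 was lower by -0.42, -0.55 and -0.37 (adjusted p = 0.0119, 3.8e-06 and 2.68e-08), and DHX33 by -0.27, -0.43 and -0.23 (adjusted p = 0.0448, 0.000184 and 2.28e-05), the cytoplasmic value turning to 0.14 without the batch term. The EIF2AK2 call in total RNA was lost whichever of the 4 libraries was left out (0.083 to 0.156), and that of DHX33 under 13 of 19 alternatives. MAVS was higher in cytoplasmic RNA, by 0.39 (adjusted p = 3.87e-09), and TICAM1 by 0.31 (adjusted p = 0.0387), a call lost under 6 of 22 alternatives.

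Comparisons with the IGF2BP1 knockout run through the control libraries, since it shares no batch with the other knockouts. Between the IGF2BP2 and IGF2BP1 knockouts 2 of 10 were called in total RNA (2 higher in the IGF2BP2 knockout) against 33.3% of all genes, 3 of 10 in nuclear RNA (2 higher, 1 lower) against 28.1% and 5 of 9 in cytoplasmic RNA (1 higher, 4 lower) against 48.4%. DHX33 was higher in the IGF2BP2 knockout by log2 0.77, 0.59 and 0.34, and MAVS was lower by -0.73 in nuclear and -0.76 in cytoplasmic RNA. The neighbours of DHX33 differed in the same direction. Their medians against control were -0.80, -0.83 and -0.90 in the IGF2BP1 knockout and -0.03, -0.03 and 0.03 in the IGF2BP2 knockout. Between the IGF2BP3 and IGF2BP1 knockouts the counts were 2 of 10 (2 higher) against 34.4% in total, 4 of 10 (2 higher, 2 lower) against 34.7% in nuclear and 6 of 9 (2 higher, 4 lower) against 51.3% in cytoplasmic RNA. DHX58 was higher in the IGF2BP3 knockout by 2.73 in cytoplasmic RNA, and TLR3 was called higher in nuclear RNA, at 23 and 28 counts against 0 and 0. EIF2AK2 was lower in the IGF2BP3 than in the IGF2BP1 knockout by -0.72 in nuclear and -0.87 in cytoplasmic RNA. Among all genes called between the IGF2BP2 and IGF2BP1 knockouts, library totals moved the share that was higher from 49.4% to 63.2% in total, from 48.3% to 59.6% in nuclear and from 43.1% to 59.7% in cytoplasmic RNA. Between the IGF2BP3 and IGF2BP1 knockouts it moved from 49.4% to 66.7%, from 47.9% to 61% and from 43.3% to 63.1%. With upper-quartile scaling it was 59.7% in cytoplasmic RNA of the former comparison, and 58% in nuclear and 60.5% in cytoplasmic RNA of the latter.

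The cytoplasmic IGF2BP3 libraries of batch 5 differed from those of batches 3 and 4, although all 4 come from the same clone. Of the 9 genes tested 6 were called (4 higher in batch 5, 2 lower) against 55% of all genes. Library totals moved the share of higher among all called genes from 51.9% to 27.7%, and upper-quartile scaling to 33%. DHX33 rose from 87.5 to 138.1 scaled CPM on average (log2 0.66, edgeR adjusted p = 4.84e-15), DDX3X from 394.3 to 544.6 (log2 0.47, adjusted p = 5.97e-13) and EIF2AK2 from 56.6 to 70.6 (log2 0.32, adjusted p = 8.7e-07). IFIH1 fell from 1.55 to 0.808 (log2 -0.93, adjusted p = 0.0124) and TLR3 from 0.674 to 0.241 (log2 -1.46, adjusted p = 0.0127). DHX58 stood at 1.01 and 0.571, a difference that was not called (adjusted p = 0.068). MAVS was called higher by 0.13 (adjusted p = 0.015), a value that turned to -0.01 with upper-quartile scaling and to -0.05 with library totals. With no control in batch 5, batch 5 and any other difference of these 2 libraries cannot be told apart. The TLR3 levels of the batch 5 libraries, 0.173 and 0.31 scaled CPM, lay within the cytoplasmic control range of 0.156 to 0.354. Those of DHX58, 0.389 and 0.753, lay on either side of the control range of 0.413 to 0.584.

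The fractions show where the mRNAs of control cells were recovered, relative to the bulk of mRNA in each fraction. Mean control levels, scaled within each RNA kind, did not always lie between the fractions in total RNA. MAVS had 176.9 scaled CPM there, against 135.1 in nuclear and 113.6 in cytoplasmic RNA. DDX3X, DHX33, EIF2AK2, ZC3HAV1 and TLR3 also exceeded both fractions. TICAM1, DHX58 and RIGI lay between them and IFIH1 below both. The reason was not tested. In the control, 6 of the 8 genes tested between the fractions were called (3 higher in nuclear RNA, 3 lower) against 65.9% of all genes, and library totals moved the share of higher among all called genes from 49.5% to 64.1%. DDX3X was higher in nuclear RNA by log2 0.41 (edgeR adjusted p = 2.47e-05), DHX58 by 0.89 (adjusted p = 0.0117) and MAVS by 0.16 (adjusted p = 0.0198). The DHX58 call was lost with DESeq2 (0.105), without cytoplasmic control replicate 2 (0.0789) and without nuclear control replicate 2 (0.0761), and that of MAVS under 5 of 13 alternatives. TICAM1 was lower in nuclear RNA by -0.56 (adjusted p = 0.00131), EIF2AK2 by -0.20 (adjusted p = 0.00551) and DHX33 by -0.22 (adjusted p = 0.00203). With library totals EIF2AK2 stood at -0.06 (adjusted p = 0.409) and DHX33 at -0.08 (adjusted p = 0.181). IFIH1 and ZC3HAV1, at 0.09 and -0.02, were not called, and RIGI and TLR3 did not pass the filter. Without the filter RIGI was higher in nuclear RNA by log2 1.95 (edgeR adjusted p = 2.28e-05), on 70 nuclear and 14 cytoplasmic counts over the control libraries. TLR3 then stood at -0.34 (adjusted p = 0.726). The calls of DDX3X and TICAM1 held under all 13 alternatives.

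MAVS was the gene for which a changed distribution between the fractions was called. A changed ratio of nuclear to cytoplasmic RNA was called for 1 of 10 genes in the IGF2BP2 knockout (lower) against 18% of all genes, for 1 of 10 in the IGF2BP3 knockout (lower) against 10.2% and for 0 of 10 in the IGF2BP1 knockout against 2.99%. The gene called in both was MAVS. Its ratio fell by 0.62 on the log2 scale in the IGF2BP3 knockout (SE 0.102, edgeR adjusted p = 0.000203), where nuclear RNA went from 135 to 89.5 scaled CPM while cytoplasmic RNA stood at 114 in the control and at 113 over all 4 knockout libraries. It fell by 0.31 in the IGF2BP2 knockout (SE 0.103, adjusted p = 0.0387), where both fractions were lower. The IGF2BP3 value held under all 25 alternatives, between -0.74 and -0.45. The IGF2BP2 call was lost under 14 of 25, with values between -0.39 and -0.23 and adjusted p up to 0.261. In the IGF2BP1 knockout the value was -0.28 (adjusted p = 0.115; with library totals -0.35, adjusted p = 0.0469). With edgeR 2 of the 10 genes had an unadjusted p under 0.05 in that knockout, and DESeq2 called 0 with 3 at an unadjusted p under 0.05. Library totals moved the share of higher among all genes called in the ratio from 63.6% to 31.9%, from 48.1% to 26.7% and from 40.3% to 23.4% in the IGF2BP1, IGF2BP2 and IGF2BP3 knockouts. For the IGF2BP1 knockout it was 38.3% with DESeq2-type size factors.

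**Figure D4:**
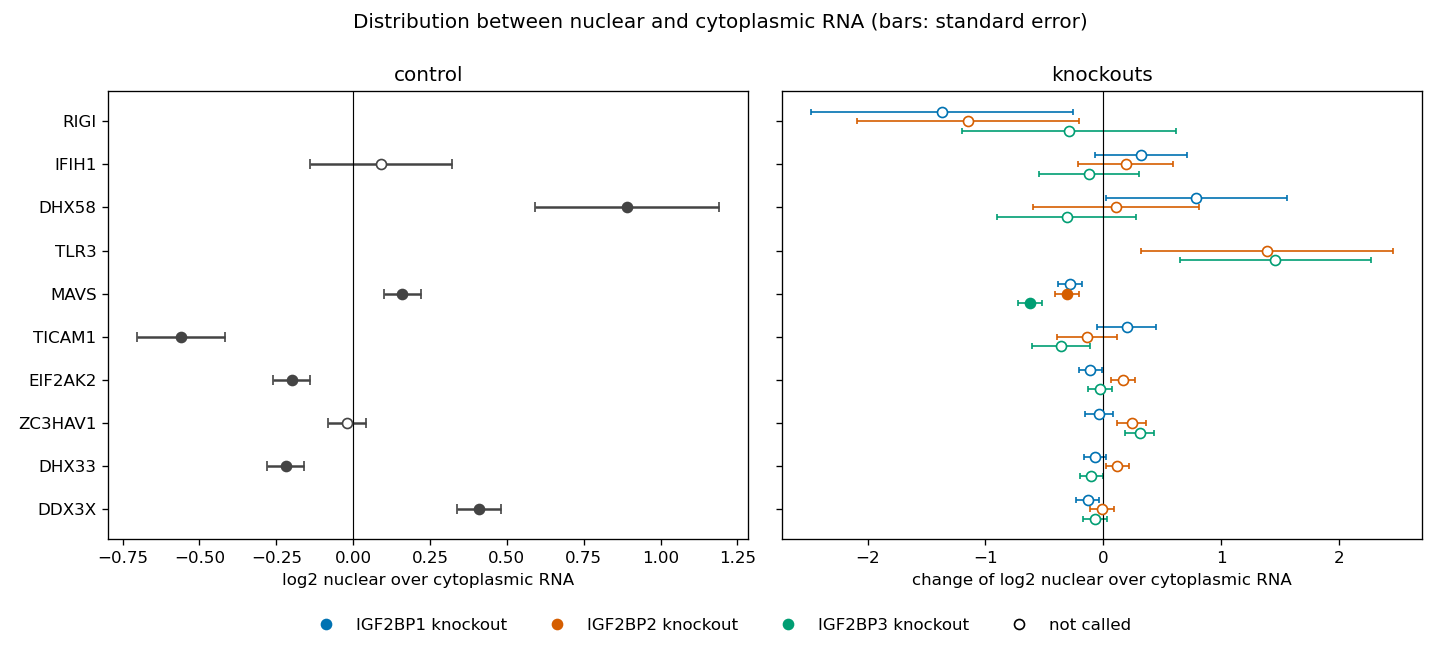
Left, log2 ratio of nuclear to cytoplasmic RNA in the control, where RIGI and TLR3 were not tested. Right, change of that ratio in each knockout (x axes, log2; bars, standard error), where TLR3 of the IGF2BP1 knockout is not drawn. Filled points were called by edgeR, and on the right these are MAVS in the IGF2BP2 (-0.31) and IGF2BP3 (-0.62) knockouts.

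The genes with which these sensors work were taken from 10 lists of 75 genes. The interferons and chemokines that RNA sensing induces (IFNB1, IFNL1, IFNL2, IFNL3, CXCL10 and CCL5) reached at most 3 counts in any library, and 0 of 6 passed the filter. Of the 64 pathway genes that passed, 15 (8 higher, 7 lower), 40 (12 higher, 28 lower) and 32 (12 higher, 20 lower) were called in total RNA of the IGF2BP1, IGF2BP2 and IGF2BP3 knockouts, where 24.2%, 47% and 46.9% of all genes were called. Nuclear RNA gave 16 (7 higher, 9 lower), 42 (17 higher, 25 lower) and 42 (16 higher, 26 lower) beside 25.7%, 49.7% and 50.4% of all genes, and cytoplasmic RNA 32 (18 higher, 14 lower), 49 (15 higher, 34 lower) and 48 (17 higher, 31 lower) beside 44.4%, 64.2% and 64.7%. The counts of single lists below are to be read beside these shares, and no list was tested as a set. The median log2 fold change of the lists in cytoplasmic RNA was 0.06, -0.28 and -0.08, where that of all genes was 0.01, 0.01 and 0.02.

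Of 19 partners of MAVS, the IGF2BP2 knockout had 12 called in total RNA (1 higher, 11 lower), 15 in nuclear RNA (5 higher, 10 lower) and 15 in cytoplasmic RNA (4 higher, 11 lower). The shares of all genes were 47%, 49.7% and 64.2%. In the IGF2BP3 knockout 8 (3 higher, 5 lower), 11 (5 higher, 6 lower) and 10 (3 higher, 7 lower) were called, and in the IGF2BP1 knockout 5 (3 higher, 2 lower), 6 (3 higher, 3 lower) and 11 (5 higher, 6 lower). IRF7, the interferon-induced transcription factor downstream of MAVS, held 96, 138 and 80 counts over the 4 control libraries of total, nuclear and cytoplasmic RNA, and 1, 2 and 0 counts over the 2 libraries of the IGF2BP2 knockout. It was called lower in each (edgeR adjusted p = 9.75e-05, 1.63e-09 and 2.19e-08), and in cytoplasmic RNA the level was at least 15.9-fold lower, set against 3 counts over both libraries. In the IGF2BP3 knockout IRF7 rose by log2 2.2, 2.12 and 2.47 (adjusted p = 2.96e-05, 3.22e-10 and 2.77e-11). IKBKE, a kinase that phosphorylates IRF3 and IRF7, was lower by -2.83, -3.02 and -2.99 in the IGF2BP2 knockout and by -1.88, -1.97 and -1.83 in the IGF2BP1 knockout. IKBKG, the scaffold of the NF-kappaB kinase, was lower by -0.85, -0.91 and -0.83 in the IGF2BP2 knockout.

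Other detectors and effectors of double-stranded RNA differed by knockout. OAS3, which makes the activator of RNase L, rose in the IGF2BP3 knockout by log2 2.99, 3.46 and 2.91 (edgeR adjusted p = 4.57e-08, 3.94e-19 and 8.69e-18), from 3.07 ± 0.449 (SD, n = 4) to 25.7 ± 2.22 scaled CPM (n = 2) in total RNA. In the IGF2BP1 knockout it rose by 0.92, 1.13 and 1.49. Of the OAS and RNase L genes 3 of 5 passed the filter, and 1, 2 and 3 were called in total, nuclear and cytoplasmic RNA of the IGF2BP3 knockout. Of the 4 IFIT genes, which bind foreign RNA ends, 3 were higher and 0 lower in each RNA kind of that knockout. IFIT1 was lower by -1.4, -1.02 and -1.13 in the IGF2BP2 knockout and higher by 0.37, 0.57 and 0.31 in the IGF2BP3 knockout, while IFIT5 was lower in the IGF2BP1 knockout by -0.45, -0.74 and -0.77. Among the 6 editors and binders of double-stranded RNA, 3 of 4 calls in total RNA, 4 of 5 in nuclear RNA and 5 of 6 in cytoplasmic RNA of the IGF2BP3 knockout were lower. DHX9, a helicase that binds double-stranded RNA, stood at -0.62, -0.36 and -1.09 there, called in each RNA kind. In the IGF2BP2 knockout 3 (0 higher, 3 lower), 5 (1 higher, 4 lower) and 5 (0 higher, 5 lower) of these 6 were called.

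Of the 8 remaining helicases linked to sensing, 2 (1 higher, 1 lower), 3 (0 higher, 3 lower) and 4 (1 higher, 3 lower) were called in total, nuclear and cytoplasmic RNA of the IGF2BP1 knockout. In the IGF2BP2 knockout 7 (6 of them lower), 7 (all lower) and 8 (7 of them lower) were called, and in the IGF2BP3 knockout 6 (5 of them lower), 6 (all lower) and 7 (6 of them lower). DDX21, a nucleolar helicase, was lower in all 3 knockouts, by -0.65, -0.60 and -0.52 in the IGF2BP1, -0.74, -0.61 and -1.03 in the IGF2BP2 and -1.24, -1.15 and -1.42 in the IGF2BP3 knockout. DDX1 stood at -0.80, -0.56 and -1.0 in the IGF2BP3 knockout and DHX36 at -0.60, -0.75 and -1.02, all called. Among the 6 genes of the eIF2 kinases and phosphatase, 5 (3 higher, 2 lower), 3 (2 higher, 1 lower) and 6 (3 higher, 3 lower) were called in the IGF2BP2 knockout. PPP1R15A, which brings the phosphatase to eIF2 and so opposes EIF2AK2, rose in that knockout by 1.73, 1.88 and 1.9 (edgeR adjusted p = 8.87e-08, 4.04e-21 and 1.39e-24), from 31.3 ± 0.676 (SD, n = 4) to 102 ± 5.64 scaled CPM (n = 2) in total RNA. EIF2AK1, another eIF2 kinase, was lower there by -0.73, -0.64 and -0.77, and EIF2AK3 was higher by 0.86, 0.53 and 0.85.

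Of the 10 regulators of the RIG-I-like receptors, 6 (4 higher, 2 lower), 4 (4 higher, 0 lower) and 7 (5 higher, 2 lower) were called in the IGF2BP2 knockout. RIOK3, a kinase that acts on MDA5, was higher in all 3 knockouts and RNA kinds, by log2 0.28 to 0.42. DDX60 was higher in the IGF2BP2 knockout by 0.61, 0.72 and 0.60, and PRKRA, an activator of PKR, was lower in the IGF2BP3 knockout by -0.62, -0.55 and -0.49. Of the 6 cofactors of ZC3HAV1 5 passed the filter. In the IGF2BP3 knockout 3 (1 higher, 2 lower), 3 (0 higher, 3 lower) and 5 (2 higher, 3 lower) were called. EXOSC5, a subunit of the RNA exosome, was lower there by -1.54, -1.24 and -1.38, and N4BP1 was lower by -0.30, -0.52 and -0.29. KHNYN was higher in the IGF2BP2 knockout by 0.46, 0.43 and 0.44. Of the 5 genes of the endosomal Toll-like receptors 3 passed the filter, TLR7 and TLR8 staying at 2 counts or fewer. UNC93B1, which carries TLR3 and its relatives to endosomes, was lower by -1.56, -1.34 and -1.5 in the IGF2BP2 knockout (edgeR adjusted p = 9.75e-07, 2.03e-12 and 2.5e-15) and by -0.39, -0.36 and -0.72 in the IGF2BP3 knockout.

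The genes whose pattern was most like that of a member were sought by Pearson's r of log2 levels over the 31 distinct libraries, centred on each RNA kind, among 14433 genes. These values describe libraries that share clones, batches and scaling. DHX33 was most like GEMIN4 (r = 0.958) and METTL16 (0.947), both on chromosome 17 near it. IFIH1 was most like SCN2A (0.886), also on chromosome 2, and C5orf34 (0.882). For MAVS they were ARIH2 (0.951) and PIK3C2A (0.943), for TICAM1 POU3F1 (0.761) and ZBTB46 (0.701), for EIF2AK2 NFATC3 (0.977) and NUP153 (0.958), for ZC3HAV1 ANKS1A (0.946) and NOTCH2 (0.942), and for DDX3X PLEKHB2 (0.949) and USP36 (0.947). Among the members, MAVS with DDX3X, EIF2AK2 with ZC3HAV1, ZC3HAV1 with DDX3X and DHX33 with DDX3X had r = 0.76, while IFIH1 had r = -0.49 with DHX33 and -0.48 with MAVS.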

How the data were processed

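Per the labels' protocols, RNA was isolated with a fractionation kit, treated with DNase and made into stranded poly(A) libraries that were sequenced as paired reads. The submitters' processing notes name STAR, featureCounts, DESeq2 1.44.0 and GRCh38. The annotation and the strand setting are not given in the sources used here. The authors deposited raw counts per gene, the values tested here, and FPKM, used only in alternative fits. In genes with over 200 counts, counts divided by FPKM followed the genomic span of the gene in GENCODE 29 (95th over 5th percentile 1.0003 across genes in all 32 libraries) and not the union of its exons (25.9 to 29.4), so levels between genes were computed from counts and exons, a choice made after seeing the data.

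Libraries of each RNA kind entered a single edgeR 4.0.16 quasi-likelihood fit (R 4.3.3) with TMM, the filter on low counts by group (minimum count 10, minimum total 15), genotype and batch. Batch 5 adds to the spread and not to the fold change. A changed ratio between the fractions was tested as the interaction of compartment with genotype over batches 1 to 4. Tests covered 18745, 18732 and 18212 genes in total, nuclear and cytoplasmic RNA, 16246 between the fractions and 19310 in the ratio, and p-values were adjusted over all of them. The biological coefficient of variation was 7.87% (total RNA), 6.88% (nuclear RNA) and 2.89% (cytoplasmic RNA). The script was tested on simulated data. Identifiers without a symbol (0.349% to 0.713% of counts) were kept, since each has an Ensembl identifier.

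The batch label pairs libraries across genotypes. In the batches that a knockout shared with the control, its library differences and those of the control correlated between -0.075 and 0.012 over genes. A shift of all these batches against the other control batches cannot show in these values. Such a shift is described above for ZC3HAV1 in cytoplasmic RNA of the control. Whether batches had a shared effect is therefore not answered by the correlations.

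Alternatives were DESeq2 1.42.0, DESeq2-type size factors (RLE), upper-quartile scaling, library totals without a scaling factor (added after seeing the data), limma 3.58.1 on log2(FPKM + 1) and log2(FPKM + 0.1), no filter, a mean of at least 1 CPM, no batch term, the knockout's own batches only, no batch 5 and leaving out each library. Named genes were the 10 members, the 3 targeted genes, the markers, the 2 genes most like each member with a mean of at least 1 CPM, and up to 3 genes per pathway list that had the largest change in total RNA, were called with 1 sign in all 3 RNA kinds of a knockout and averaged 1 CPM or more. A gene that this rule names is not reported here. The members and lists were chosen with earlier results of these data known.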

Additional observations from a re-analysis of the deposited data

Results flagged for a closer look

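Of 40 groups of 4 libraries examined, 1 held a library that stood apart from its group by Dixon's criterion, which chance alone meets in about 1 in 20 groups. IFIH1 in cytoplasmic RNA of the control was at 2.3 scaled CPM in replicate 1 and at 1.3 in the nearest library, a gap that took up 0.838 of the range of the group. The MAVS effect of a knockout differed between nuclear and cytoplasmic RNA by a test of that difference. The change of the log2 ratio was -0.62 in the IGF2BP3 knockout and -0.31 in the IGF2BP2 knockout (edgeR adjusted p = 0.000203 and 0.0387). The IGF2BP2 call was lost under many alternatives, no batch term and no filter among them.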

How the results depend on the processing

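The values of the 10 genes against control were computed 1779 times under alternatives. The side of the threshold was kept in 1612, which include sign changes of values that neither analysis called. The call was lost in 79 and gained in 83. In 5 the sign changed and the value was called in the reported analysis or in the alternative. The cause of the changes below was not tested. Numbers in brackets are the values of the reported analysis.

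Without the batch term (no replicate block), members called in total RNA were 7 (3) in the IGF2BP3 knockout and 5 (2) between the IGF2BP3 and IGF2BP1 knockouts. In nuclear RNA they were 5 (3) in the IGF2BP2 knockout and 5 (3) between the IGF2BP2 and IGF2BP1 knockouts. In cytoplasmic RNA they were 3 (5) in the IGF2BP1 knockout, 3 (6) in the IGF2BP3 knockout and 4 (7) between the IGF2BP3 and IGF2BP2 knockouts. The ratio gave 0 (1) in the IGF2BP2 knockout. Genes called were 8554 (5256) between the IGF2BP2 and IGF2BP1 knockouts in nuclear RNA, 4185 (8095) in cytoplasmic RNA of the IGF2BP1 knockout, and 1674 (3483) and 639 (1961) in the ratio of the IGF2BP2 and IGF2BP3 knockouts. DDX3X in cytoplasmic RNA of the IGF2BP1 knockout turned to 0.08 (-0.10). Between the IGF2BP3 and IGF2BP2 knockouts in cytoplasmic RNA DHX33 turned to 0.14 (-0.23), DHX9 to 0.01, DDX21 to 0.07 and DDX1 to 0.07, and IKBKG turned to 0.11 (-0.46) between the IGF2BP3 and IGF2BP1 knockouts.

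DESeq2 called 2 (5), 1 (2) and 1 (2) members between the IGF2BP3 and IGF2BP2, IGF2BP2 and IGF2BP1, and IGF2BP3 and IGF2BP1 knockouts in total RNA, 2 (4) in the last of these in nuclear RNA, 3 (5) in cytoplasmic RNA of the IGF2BP1 knockout and 3 (6) between batch 5 and batches 3 and 4. It called 3075 (4811) genes in nuclear RNA of the IGF2BP1 knockout, 3433 (5256) between the IGF2BP2 and IGF2BP1 knockouts there, and 2195 (3483) and 1283 (1961) in the ratio of the IGF2BP2 and IGF2BP3 knockouts. limma with pseudocounts 1 and 0.1 called 3 and 3 (5) members between the IGF2BP3 and IGF2BP2 knockouts in total RNA, 1 and 1 (3) in nuclear and 3 and 3 (5) in cytoplasmic RNA of the IGF2BP1 knockout, and with 0.1 it called 6 (3) in total RNA of the IGF2BP3 knockout. It called 2258 and 2425 (4528) genes in total and 1709 and 1805 (4811) in nuclear RNA of the IGF2BP1 knockout, and 2683 and 2679 (5256) and 3860 and 3948 (6498) between the IGF2BP2 or IGF2BP3 and the IGF2BP1 knockout in nuclear RNA.

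Upper-quartile scaling called 2 (4) members in total RNA of the IGF2BP2 knockout, and turned MAVS in cytoplasmic RNA of the IGF2BP3 knockout to 0.15 (-0.02) and, between batch 5 and batches 3 and 4, MAVS to -0.01 (0.13) and EIF2AK1 to -0.11 (0.02). Library totals called 6 (3) members in total RNA of the IGF2BP3 knockout and 1 (0) in the ratio of the IGF2BP1 knockout. In cytoplasmic RNA they turned EIF2AK2 to 0.15 (-0.07) and IFIT5 to 0.01 (-0.22) in the IGF2BP2 knockout, and MAVS to 0.25 (-0.02), ZC3HAV1 to 0.01 (-0.26) and IFIT5 to 0.24 (-0.03) in the IGF2BP3 knockout. Between batch 5 and batches 3 and 4 they turned MAVS to -0.05 (0.13), RIOK3 to -0.13 (0.04), ADARB1 to -0.02 (0.15) and EIF2AK1 to -0.15 (0.02).

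Without a filter, 5 (3) members were called in total RNA of the IGF2BP3 knockout, and 0 (1) and 2 (1) in the ratio of the IGF2BP2 and IGF2BP3 knockouts. With a mean of at least 1 CPM, fewer genes were tested, and 3 (5) were called between the IGF2BP3 and IGF2BP2 knockouts in total and 3 (5) in nuclear RNA, and 2 (4) between the IGF2BP3 and IGF2BP1 knockouts in nuclear RNA. With the own batches only, 6 (3) were called in total RNA of the IGF2BP3, 1 (3) in nuclear RNA of the IGF2BP1 and 5 (3) in nuclear RNA of the IGF2BP2 knockout, and 2354 (4528) genes in total RNA of the IGF2BP1 knockout.

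Leaving out each library in turn, which leaves 1 library of a knockout that is assumed to vary like the other groups, genes called in total RNA ranged from 3055 to 7388, 4656 to 11185 and 5065 to 11328 in the IGF2BP1, IGF2BP2 and IGF2BP3 knockouts, and from 3848 to 10834, 3063 to 8663 and 3662 to 8796 between the IGF2BP3 and IGF2BP2, IGF2BP2 and IGF2BP1, and IGF2BP3 and IGF2BP1 knockouts. In nuclear RNA they ranged from 5930 to 10273 and 6235 to 10476 in the IGF2BP2 and IGF2BP3 knockouts and from 3233 to 5125 between the IGF2BP2 and IGF2BP1 knockouts. In the ratio they ranged from 0 to 2257, 1379 to 4825 and 753 to 3187. Members called in total RNA ranged from 3 to 5, 1 to 6 and 1 to 6 in the 3 knockouts and from 1 to 6, 1 to 4 and 0 to 4 between them in the same order. In nuclear RNA they ranged from 3 to 5 in both the IGF2BP2 and IGF2BP3 knockouts, in cytoplasmic RNA from 3 to 5 in the IGF2BP1 knockout and from 4 to 7 between the IGF2BP3 and IGF2BP2 knockouts, and in the ratio from 0 to 1, 0 to 1 and 1 to 2. DDX1 in total RNA of the IGF2BP1 knockout ranged from -0.23 (without control replicate 2) to 0.28 (0.03). At 0 to 104 counts per library, depth limits what can be said of RIGI, IFIH1, DHX58 and TLR3.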
